A study of Homo sapiens with 12 samples.

Results

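Bafilomycin A1 (BafA1), an inhibitor of the proton pump that acidifies lysosomes, was compared with no treatment in RPE1 cells. The comparison took 6 of the 12 RNA sequencing libraries of the study: 3 from cells given 0.1 µM BafA1 for 6 h and 3 from untreated cells (control). All libraries came from hTERT-RPE1, a telomerase-immortalised line of human retinal pigment epithelium, grown in DMEM with fetal bovine serum. Of the remaining libraries, 3 came from cells exposed to reversine (0.5 µM, 24 h) and collected 48 h after its removal, and 3 from cells given 1 µM MG132 for 24 h. Reversine inhibits the spindle checkpoint kinase Mps1 and MG132 inhibits the proteasome. The labels name neither a vehicle nor a time for the untreated cells, so BafA1, its solvent and time in culture cannot be told apart. The labels do not say whether the libraries of one treatment were grown as separate cultures. The p-values therefore reflect the spread among the sequenced libraries alone, which may be technical.

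Of 53361 rows in the gene table, 30712 were tested, those with at least 1 FPKM in at least 3 of the 12 libraries. FPKM corrects the fragment count of a gene for transcript length and library size. Differences are on the log2(FPKM + 1) scale, BafA1 minus control, which understates the change of genes with low values. A gene was called higher or lower where the adjusted p of limma (Benjamini-Hochberg over the 30712 rows) was under 0.05, in a fit of all 4 groups. In bulk RNA, fewer cells of a type and less RNA per cell cannot be told apart.

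The vacuolar ATPase (V-ATPase) pumps protons into lysosomes and endosomes. The low pH lets hydrolases digest cargo delivered by endocytosis and autophagy, lets receptors release their ligands, and lets cholesterol and iron leave the lysosome for the rest of the cell. Cholesterol in the endoplasmic reticulum holds the SREBP transcription factors inactive, so that genes of sterol synthesis and uptake are used when sterol there is low. Iron and oxygen are both needed by the prolyl hydroxylases that mark HIF1A, the factor of the hypoxia response, for destruction. TFEB and TFE3 are the transcription factors of lysosome and autophagy genes and enter the nucleus when lysosomes are impaired.

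Read counts are unknown. Depth relative to the deepest library, estimated from the lowest values of 3060 rows, was 0.82 to 1 in the controls and 0.62 to 0.77 after BafA1, so every BafA1 library was shallower than every control. In BafA1 2 the 10 most abundant rows held 42.9% of all FPKM and ribosomal RNA rows 21.5%. Control 3 had 9118 rows at 0, against 4240 and 2119 in controls 1 and 2 and 1623 to 2909 after BafA1. Its ribosomal RNA rows held 0%, against 0.23% and 3.33% in controls 1 and 2. The lowest correlation of a library with another of its group was 0.43 to 0.55 among controls and 0.76 to 0.85 after BafA1. Values of BafA1 3 fell with transcript GC content relative to the mean of all libraries, with a slope of −0.094 log2 units per 10 percentage points, while they rose with it in BafA1 1, BafA1 2 and all controls. Of 13 markers of retinal pigment epithelium 9 were tested, and MITF, OTX2, KRT8 and KRT18 stood at 11.85 FPKM or more in each of the 6 libraries. The other 9 were low or near the floor in all 6, with PMEL and SERPINF1 at 3.3 to 6.52 FPKM, TYRP1 at 1.66 to 2.26 FPKM, RLBP1 and BEST1 at 0.87 to 1.65 FPKM and TYR, DCT and TTR at 0.36 to 0.64 FPKM. RPE65, the retinoid isomerase of that tissue, was at 0.06 FPKM or less. Summed markers of blood (8.4 to 9.9 FPKM in controls, 9.57 to 11.8 after BafA1) and of endothelium (4.87 to 5.61 and 5.75 to 7.17) were low in both groups. Summed markers of other epithelia stood at 41.4 to 80.3 FPKM in controls and 41.6 to 70.9 FPKM after BafA1, most of it MUC1 (27.05 to 63.4 and 25.7 to 51.9 FPKM). Summed neuron markers stood at 88.6 to 758 and 459 to 650 FPKM, most of it the row ENSG00000258947 of the tubulin gene TUBB3. That row was at 703 and 725 FPKM in controls 1 and 2, 60.2 FPKM in control 3 and 415 to 613 FPKM after BafA1, so control 3 stood apart. A second TUBB3 row, ENSG00000198211, had means of 310.4 FPKM in controls and 13.8 FPKM after BafA1 and was not called; the rows share a symbol and may share reads. The median log2 difference of the tested protein-coding genes went from 0.16 for the 3366 genes under 3 FPKM to −0.24 for the 906 genes between 100 and 300 FPKM. The part of depth, GC content, rows at 0 and this trend in the results was not tested.

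After 6 h of BafA1, 81 genes were called (0.264% of those tested), 62 of them higher (0.202%) and 19 lower (0.0619%). Among the genes that rose most were those of cholesterol and fatty acid synthesis, with INSIG1 6.7-fold and HMGCS1 7.81-fold above control, and those of the hypoxia response, with the carbonic anhydrase CA9 12.6-fold above control. Among the genes that fell were SERPINB2, an inhibitor of plasminogen activators (6.33-fold lower), and F3, the gene of tissue factor (2.51-fold lower). In all 81 the 3 BafA1 libraries lay on one side of the 3 controls, which was also true of 23.1% of all tested genes (15.7% higher, 7.42% lower). Of the 81, 76 were protein coding. The fit of the 6 libraries alone called 19 genes, 17 of them among the 81, and leaving out any 1 of the 6 libraries left 19 (control 1) to 34 (BafA1 3) calls, each with fewer libraries to estimate the spread. Testing protein-coding genes alone, an alternative chosen after seeing the data, gave 251 calls.

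**Figure D1:**
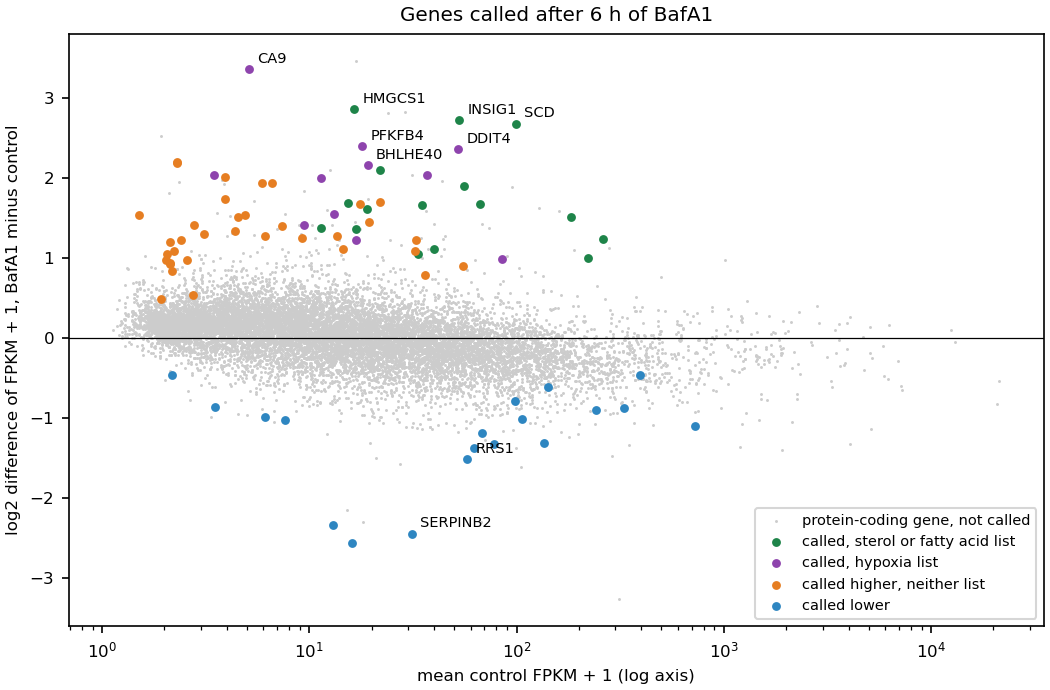
Log2 difference of FPKM + 1 (BafA1 minus control, y axis) against mean control FPKM + 1 (x axis, log scale) for the tested protein-coding genes (grey) and the 81 called genes (coloured by list). The sterol and fatty acid genes (green) and hypoxia genes (purple) make up most of the calls above 2 on the y axis, and the grey cloud tilts from above 0 at low levels to below 0 at high levels.

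The list of cholesterol synthesis and uptake held 35 genes, of which 33 were tested. Of these 12 rose and 0 fell. All 3 BafA1 libraries were above all controls in 28 of the 33, and in 15.7% of all tested genes. The median log2 difference of the 33 was 1.25, beside 0.14 over all genes tested and 0.06 over the protein-coding ones. By role, 5 of the 8 enzymes from acetyl-CoA to farnesyl diphosphate rose (median 1.63), 4 of the 12 from squalene to cholesterol (median 1.40) and 3 of the 13 genes of uptake and regulation (median 0.83). The promoters of 4 called genes are shown because SREBP-driven genes commonly carry a CCAAT box, the site of the NF-Y factor, near their start. They are the 200 bases before the start of INSIG1, HMGCS1, FDPS and NSDHL, written 5′ to 3′ on the strand of the gene, from RefSeq on GRCh38.p14. Capitals mark CCAAT or its reverse complement ATTGG.
INSIG1: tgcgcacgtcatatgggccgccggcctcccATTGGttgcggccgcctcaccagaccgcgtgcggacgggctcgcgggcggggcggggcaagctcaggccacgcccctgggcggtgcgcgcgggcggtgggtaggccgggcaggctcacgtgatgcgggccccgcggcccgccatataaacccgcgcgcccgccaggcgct
HMGCS1: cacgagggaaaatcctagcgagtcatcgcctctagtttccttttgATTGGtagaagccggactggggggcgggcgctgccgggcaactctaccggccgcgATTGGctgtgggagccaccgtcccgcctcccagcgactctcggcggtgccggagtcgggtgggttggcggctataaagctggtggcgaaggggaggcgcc
FDPS: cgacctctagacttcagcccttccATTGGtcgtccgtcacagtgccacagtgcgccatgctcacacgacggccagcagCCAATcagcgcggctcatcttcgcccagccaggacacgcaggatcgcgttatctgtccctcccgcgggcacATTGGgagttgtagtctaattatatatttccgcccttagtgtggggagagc
NSDHL: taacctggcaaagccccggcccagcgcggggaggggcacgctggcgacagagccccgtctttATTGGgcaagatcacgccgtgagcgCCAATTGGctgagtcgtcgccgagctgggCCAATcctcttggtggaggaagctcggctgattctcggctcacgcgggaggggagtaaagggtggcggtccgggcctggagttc
These stretches lie at INSIG1 at chr7:155297678-155297877 (plus strand), HMGCS1 at chr5:43313413-43313612 (minus strand), FDPS at chr1:155308666-155308865 (plus strand) and NSDHL at chrX:152830863-152831062 (plus strand). INSIG1 has 1 match, 170 bases before the start, HMGCS1 has 2, FDPS 3 and NSDHL 4, counting both strands; 2 of those of NSDHL overlap. Within the 250 bases before the start, CCAAT on either strand was present in 7 of the 8 called cholesterol genes with a promoter in the table and in 18 of the 27 tested members with one (66.7%). It was present in 34.6% of the promoters of tested protein-coding genes and in 33.0% of all 27305 promoters. The sterol regulatory element in the form TCACNCCAC, on either strand, was present in 0 of the 8 and in 0.916% of the tested protein-coding promoters. FDFT1 and ACAT2 are among the members with no entry in the table.

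INSIG1 (ENSG00000186480) encodes the endoplasmic reticulum anchor that retains SREBP, and is itself an SREBP target. It stood at 57.7, 50 and 47.4 FPKM in controls 1 to 3 and at 354, 359.9 and 325 FPKM after BafA1. The groups were far apart, with means of 51.7 ± 5.38 and 347 ± 18.6 FPKM (SD, n = 3 each). The log2 difference was 2.72 (SE 0.12, limma adjusted p = 5.21e-05), the smallest adjusted p of the comparison. HMGCS1, the enzyme that makes HMG-CoA, stood at 14.3, 17.9 and 14.1 FPKM in controls and at 106, 95.4 and 160.0 FPKM after BafA1. BafA1 3 was the highest of its group, and the log2 difference was 2.86 (SE 0.32, limma adjusted p = 0.00922).

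Further called genes are given in the order of the pathway. ACAT2, which joins acetyl-CoA units, was 2.22-fold higher, the isomerase IDI1 4.54-fold and the farnesyl diphosphate synthase FDPS 2.01-fold. FDPS was already abundant, at 216, 229 and 218 FPKM in controls, and stood at 439, 418 and 474 FPKM after BafA1. FDFT1, which makes squalene, rose from 254, 246 and 276 FPKM to 634, 643 and 569 FPKM (2.38-fold). The sterol reductase TM7SF2 was 3.37-fold higher, the dehydrogenase NSDHL 2.11-fold and HSD17B7, which acts with it in removing methyl groups from the sterol ring, 2.65-fold. HSD17B7 has a transcribed copy, HSD17B7P2, which was called higher as well (3.6-fold), and reads shared by the 2 rows make both values uncertain. STARD4, a carrier of cholesterol between membranes, was 3.18-fold higher, from 15.2, 17.7 and 20.8 FPKM to 51.8, 49.6 and 69.3 FPKM. Log2 differences of these 8 listed genes lay between 1.00 and 2.10, with limma adjusted p between 0.0118 and 0.0396.

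Of the 21 members that were not called, 16 also had all BafA1 libraries above all controls. LSS, which closes the sterol ring, stood at 70.6, 61.3 and 69.6 FPKM in controls and at 193, 207 and 152 FPKM after BafA1 (limma adjusted p = 0.0896). DHCR7, the last reductase of the pathway, stood at 133, 117 and 131 FPKM and at 453, 463 and 286 FPKM, with BafA1 3 the lowest of its group (adjusted p = 0.188 by limma). SQLE, the squalene oxygenase, stood at 6.82, 10.1 and 8.46 FPKM and at 26, 24.7 and 53.4 FPKM, here with BafA1 3 the highest (adjusted p = 0.393 by limma). MSMO1 showed the same pattern, with 37.0 to 40.2 FPKM in BafA1 1 and 2 and 98.1 FPKM in BafA1 3, against 10.5 to 13.7 FPKM in controls. In SQLE and MSMO1 the groups were apart and the spread within BafA1 was wide. The fit takes its spread from all 4 groups, and why these genes were not called was not tested. NPC1, which exports cholesterol from the lysosome, stood at 26.3, 24.2 and 24.5 FPKM in controls and at 48.7, 45.1 and 42.2 FPKM after BafA1 (limma adjusted p = 0.118). SREBF2, the gene of the SREBP of this pathway, stood at 68.1, 58.9 and 78.7 FPKM and at 142, 137 and 91.3 FPKM (limma adjusted p = 0.478). The kinase PMVK was the 1 member with all BafA1 libraries below all controls, at 22.2 to 25.7 FPKM in controls and 16.8 to 19.5 FPKM after BafA1.

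In the fatty acid synthesis list 4 of 16 tested genes rose and 0 fell (median log2 difference 0.73). The groups did not overlap, with BafA1 higher, in 12 of the 16 and in 15.7% of all tested genes. SCD, the desaturase that makes oleate, stood at 97.2, 96.2 and 101 FPKM in controls and at 566, 550.2 and 825 FPKM after BafA1. The means were 98.2 ± 2.62 and 647 ± 154 FPKM (SD, n = 3 each), a 6.59-fold difference (log2 difference 2.68, SE 0.20, limma adjusted p = 0.00131), with BafA1 3 the highest library. FADS2, which desaturates polyunsaturated fatty acids, stood at 185, 171 and 193 FPKM in controls and at 544, 546 and 488 FPKM after BafA1 (2.88-fold). ACSS2, which makes acetyl-CoA from acetate, was 3.28-fold higher and the lipid droplet protein PNPLA3 2.76-fold. Fatty acid synthase, FASN, stood at 167, 148 and 164 FPKM in controls and at 559, 558 and 359 FPKM after BafA1, and was not called (limma adjusted p = 0.285). SREBF1 stood at 96.9 to 106 FPKM in controls and 145 to 216 FPKM after BafA1, also not called (limma adjusted p = 0.472). Among the called genes named from the sterol and fatty acid lists, INSIG1 and SCD were called under all 15 alternative settings; the other 9 cholesterol genes lost the call in 4 to 10 of them and the other 3 fatty acid genes in 6 to 9. Leaving out 1 library left 3 (control 1, control 3 or BafA1 1) to 6 (BafA1 3) called cholesterol genes and 1 fatty acid gene.

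**Figure D2:**
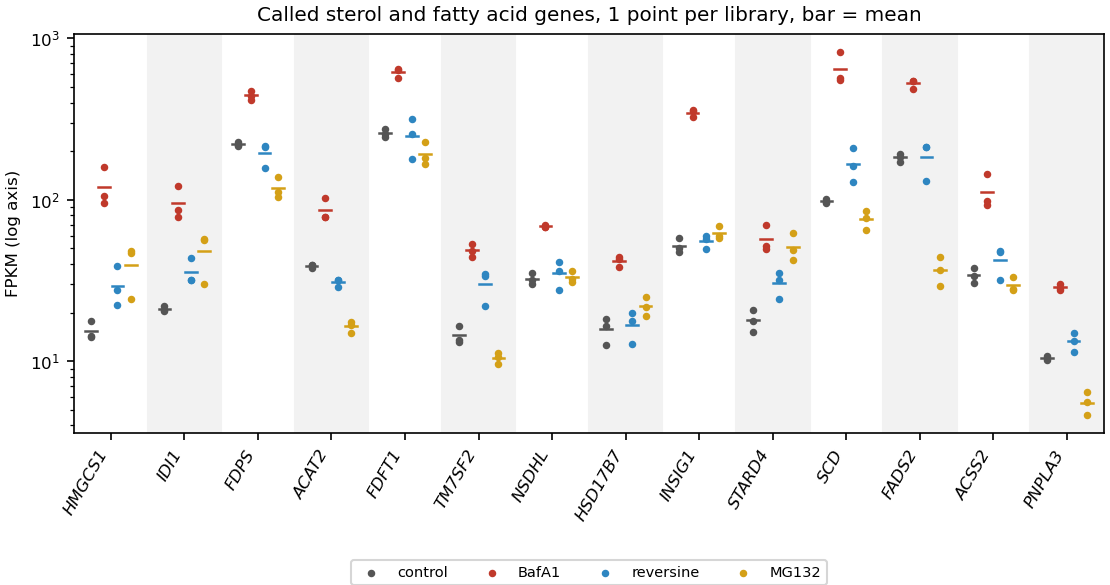
FPKM (y axis, log scale) of 10 called cholesterol genes and 4 called fatty acid genes in each of the 12 libraries (points; bars are means of 3), coloured by treatment. In each gene the 3 BafA1 points (red) lie above the 3 control points (grey), and for STARD4 they lie among those after MG132.

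In the hypoxia response list 11 of 58 tested genes rose and 0 fell. All BafA1 libraries were above all controls in 40 of the 58, and in 15.7% of all tested genes. The median log2 difference of the list was 0.77. By branch, 1 of 21 genes of glucose uptake and glycolysis rose (PDK1; median 0.32), 0 of 7 oxygen sensors and hypoxia factors by limma (median 0.19; 2 at an unadjusted p under 0.05) and 10 of the 30 remaining targets (median 1.24). The remaining targets are a mixed group of pH, vessel, mitochondrial, regulatory and metabolic genes, which includes the kinase PFKFB4, so the split does not separate glucose metabolism from the rest. A test of the difference between branches was not made. Among all tested genes 7.12% had an unadjusted limma p under 0.05, the level named for the sensors and factors. The 200 bases before the start of 4 called genes are shown because HIF binds a short core, ACGTG or GCGTG, in the promoters of many of its targets. They are from RefSeq on GRCh38.p14, 5′ to 3′ on the strand of the gene, with the core or its reverse complement in capitals.
CA9: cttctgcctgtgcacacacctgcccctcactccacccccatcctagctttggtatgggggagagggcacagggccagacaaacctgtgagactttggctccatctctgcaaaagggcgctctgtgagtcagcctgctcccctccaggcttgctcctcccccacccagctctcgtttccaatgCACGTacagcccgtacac
DDIT4: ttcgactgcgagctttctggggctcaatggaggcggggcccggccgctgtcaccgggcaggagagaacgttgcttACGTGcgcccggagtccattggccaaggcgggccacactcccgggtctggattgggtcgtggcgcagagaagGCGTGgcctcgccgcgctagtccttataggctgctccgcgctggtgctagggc
BHLHE40: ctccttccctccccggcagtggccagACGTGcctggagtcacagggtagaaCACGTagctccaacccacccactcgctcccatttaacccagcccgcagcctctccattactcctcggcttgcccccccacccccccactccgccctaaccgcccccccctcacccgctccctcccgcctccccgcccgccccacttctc
AK4: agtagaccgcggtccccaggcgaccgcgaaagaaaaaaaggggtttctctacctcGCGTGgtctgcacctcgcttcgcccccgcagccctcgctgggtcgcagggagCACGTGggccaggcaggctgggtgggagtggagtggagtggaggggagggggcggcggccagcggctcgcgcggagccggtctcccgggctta
These stretches lie at CA9 at chr9:35673728-35673927 (plus strand), DDIT4 at chr10:72273724-72273923 (plus strand), BHLHE40 at chr3:4979237-4979436 (plus strand) and AK4 at chr1:65147352-65147551 (plus strand). The core of CA9 lies 18 bases before the start, and DDIT4 and BHLHE40 have 2 matches each, AK4 3, of which 2 overlap in CACGTG. Within 250 bases before the start, the core was present in 7 of the 9 called hypoxia genes with a promoter in the table and in 37 of the 52 tested members with one (71.2%). The short core is common: it was present in 55.3% of the promoters of tested protein-coding genes and in 43.1% of all promoters. It was as frequent in the other lists, in 19 of 27 cholesterol genes (70.4%), 11 of 14 fatty acid genes (78.6%) and 30 of the 43 genes called higher that have a promoter in the table (69.8%).

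CA9 (ENSG00000107159), the cell surface carbonic anhydrase that is a standard marker of HIF activity, stood at 4.86, 3.93 and 3.47 FPKM in controls and at 45.5, 46.5 and 62.4 FPKM after BafA1. The lowest BafA1 library was far above the highest control, and the log2 difference of 3.36 (SE 0.28, limma adjusted p = 0.00148) was the highest of all called genes. DDIT4, an inhibitor of mTORC1 that hypoxia and ATF4 both raise, stood at 51.3, 46.5 and 55.8 FPKM in controls and at 259.8, 268 and 275 FPKM after BafA1. The libraries of each group were close together, and the log2 difference was 2.37 (SE 0.16, limma adjusted p = 0.00101). PFKFB4, a kinase that makes the activator of phosphofructokinase, stood at 16.7, 15.6 and 18.7 FPKM in controls and at 98.3, 93.1 and 90.8 FPKM after BafA1. It was 5.53-fold higher (log2 difference 2.40, SE 0.21, limma adjusted p = 0.00162). BHLHE40, a transcriptional repressor of the circadian and hypoxia responses, stood at 17.3, 16.4 and 20.6 FPKM in controls and at 85.8, 79.6 and 87.0 FPKM after BafA1. The log2 difference was 2.16 (SE 0.13, limma adjusted p = 0.000372), the second smallest adjusted p of the comparison. MXI1, an antagonist of MYC, stood at 11.1, 9.71 and 10.5 FPKM in controls and at 47.0, 43.6 and 43.8 FPKM after BafA1, 4.3-fold higher.

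NDRG1, a stress-responsive gene of differentiation, rose 4.19-fold from 34.1, 37.8 and 36.5 FPKM to 152, 157 and 145 FPKM. The ephrin EFNA3 was 5.38-fold higher, the mitochondrial adenylate kinase AK4 3.12-fold, the oxygen-dependent histone demethylase KDM3A 2.43-fold and the pyruvate dehydrogenase kinase PDK1 2.87-fold. BNIP3L, a receptor for the autophagy of mitochondria, was 2-fold higher, from 90.4, 87.0 and 73.5 FPKM to 159, 152 and 191 FPKM. Its relative BNIP3 stood at 37.99, 53.7 and 36.8 FPKM in controls and at 150.2, 130.1 and 241 FPKM after BafA1. The groups did not overlap, BafA1 3 was far above the other libraries, and BNIP3 was not called (limma adjusted p = 0.0918). LDHA, lactate dehydrogenase, stood at 990.0, 1155 and 885 FPKM in controls and at 1806, 1654 and 2580 FPKM after BafA1 (limma adjusted p = 0.0879). The oxygen sensor EGLN1 stood at 11.7, 12.9 and 14.3 FPKM and at 30.3, 27.5 and 37.8 FPKM (limma adjusted p = 0.0905).

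VEGFA, the growth factor of blood vessels, stood at 155, 137 and 155 FPKM in controls and at 220.4, 224 and 144 FPKM after BafA1. BafA1 3 lay within the control range, so the groups overlapped (limma adjusted p = 0.733). HIF1A itself stood at 190.3, 176 and 225 FPKM in controls and at 152, 156 and 187 FPKM after BafA1, overlapping (limma adjusted p = 0.733). The glucose transporter SLC2A1 overlapped too, at 543 to 713 FPKM in controls and 592 to 771 FPKM after BafA1. STC2, a secreted glycoprotein, was the 1 hypoxia gene with all BafA1 libraries below all controls, at 1208, 1030 and 1342 FPKM and at 534, 505 and 367 FPKM (limma adjusted p = 0.0679). CA9, DDIT4, PFKFB4 and BHLHE40 were called under all 15 alternative settings, and the other 7 lost the call in 1 to 9. Leaving out 1 library left 5 (control 1 or BafA1 1) to 9 (BafA1 3) called hypoxia genes.

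**Figure D3:**
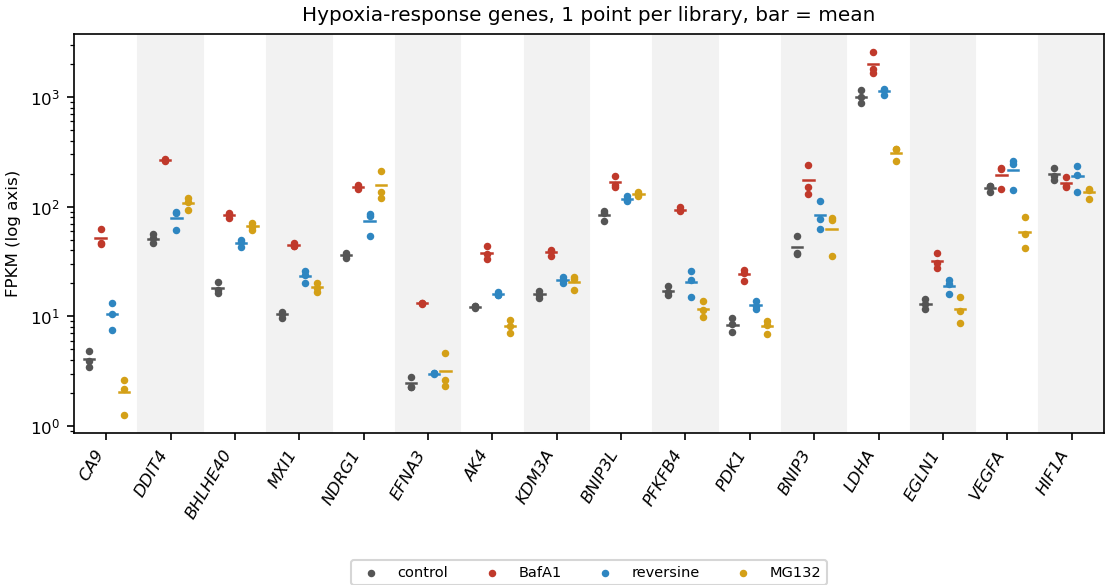
FPKM (y axis, log scale) of the 11 called hypoxia genes and of BNIP3, LDHA, EGLN1, VEGFA and HIF1A, which were not called, in each of the 12 libraries (points; bars are means of 3). The BafA1 points (red) lie above the controls (grey) in the first 14 genes, and overlap them for VEGFA and HIF1A.

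Outside the 37 lists, 33 genes rose. Of the 15 such rows named in the text, 0 were called under all alternative settings that tested them, and each lost the call in 1 to 11. RAB20, a GTPase of endosomes and phagosomes, stood at 1.61, 1.43 and 0.88 FPKM in controls and at 9.14, 8.99 and 10.6 FPKM after BafA1, 7.32-fold higher. PPFIA4, a liprin scaffold protein, stood at 1.13, 1.66 and 1.11 FPKM and at 10.3, 9.46 and 8.68 FPKM (7.29-fold). Both were near the floor in controls and clearly present after BafA1. LIPG, an extracellular phospholipase that acts on lipoproteins, stood at 2.56, 3.43 and 2.82 FPKM and at 14.5, 15.2 and 14.8 FPKM (5.06-fold). PIK3IP1, which restrains PI3 kinase, stood at 4.88, 4.11 and 5.81 FPKM and at 20.1, 23.3 and 21.8 FPKM (4.4-fold). Limma adjusted p of these 4 genes lay between 0.00144 and 0.00441. The next genes were chosen after their values were seen. TSC22D3, a glucocorticoid-inducible regulator, was 3.34-fold higher and CCNG2, an atypical cyclin of quiescent cells, 4.36-fold. SPRY1, an antagonist of receptor tyrosine kinase signalling, was 3.43-fold higher and BHLHE41, the close relative of BHLHE40, 2.81-fold. The glucose transporters SLC2A12 (3.27-fold) and SLC2A6 (2.74-fold, and 2.69-fold in another row of the same symbol) and the phosphoglucomutase PGM1 (1.75-fold) were higher as well. CLCN6, a chloride-proton exchanger of late endosomes, was 2.92-fold higher, and the row of the antisense gene NPPA-AS1, which neighbours it, was called too. Without a stated strand setting, reads from neighbouring or antisense genes cannot be told apart. VLDLR, a lipoprotein receptor counted in the list of ATF4 targets, was 2.54-fold higher, from 9.21, 7.39 and 8.04 FPKM to 23.0, 21.1 and 18.5 FPKM.

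The 19 genes that fell included SERPINB2, the plasminogen activator inhibitor type of macrophages and epithelia. It stood at 31.1, 29.5 and 30.3 FPKM in controls and at 4.15, 5.45 and 4.76 FPKM after BafA1. The means were 30.3 ± 0.77 and 4.79 ± 0.65 FPKM (SD, n = 3 each), with a log2 difference of −2.44 (SE 0.20, limma adjusted p = 0.00148). The tissue factor gene F3, which starts clotting, stood at 131, 142 and 129 FPKM and at 54.2, 48.8 and 57.3 FPKM (2.51-fold lower). In both genes the groups were well apart.

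GREM1, an antagonist of bone morphogenetic proteins, stood at 70.3, 76.8 and 82.1 FPKM in controls and at 33.0, 28.2 and 28.9 FPKM after BafA1 (2.54-fold lower). INHBA, the activin subunit, stood at 71.1, 56.1 and 74.8 FPKM and at 31.0, 29.2 and 26.6 FPKM (2.33-fold lower). The Wnt antagonist DKK1 was 2.04-fold lower and CYR61, a matricellular target of YAP, 1.83-fold lower (327, 327 and 329.9 FPKM against 193, 178 and 167 FPKM). TNFRSF11A, the receptor RANK, was 2.4-fold lower. Both rows of the keratin-associated gene KRTAP2-3, ENSG00000262862 and ENSG00000212724, fell by 2.56 and 2.33 on the log2 scale; they share a symbol and may share reads, and both were lowest in BafA1 3. G0S2, an inhibitor of the triglyceride lipase of lipid droplets, stood at 60.02, 59.97 and 64.0 FPKM in controls and at 22.9, 21.8 and 24.5 FPKM after BafA1.

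RRS1, a factor of ribosome assembly, stood at 57.5, 53.5 and 59.5 FPKM in controls and at 21.0, 18.9 and 18.1 FPKM after BafA1 (2.94-fold lower, log2 difference −1.51, SE 0.12, limma adjusted p = 0.00131). The methionyl-tRNA synthetase of mitochondria, MARS2, was 2.44-fold lower. NOP56 and DKC1 were chosen here after their values were seen. NOP56, a core protein of methylating nucleolar particles, stood at 238, 233 and 248 FPKM and at 132, 128 and 124 FPKM (limma adjusted p = 0.0015), and DKC1, the pseudouridine synthase, was 1.73-fold lower. The thioredoxin reductase TXNRD1, an NRF2 target, was 1.38-fold lower. SERPINB2 was called under all 15 alternative settings, and the other 14 named rows that fell lost the call in 1 to 11. Leaving out 1 library left 4 (control 1) to 7 (BafA1 3) genes called lower.

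**Figure D4:**
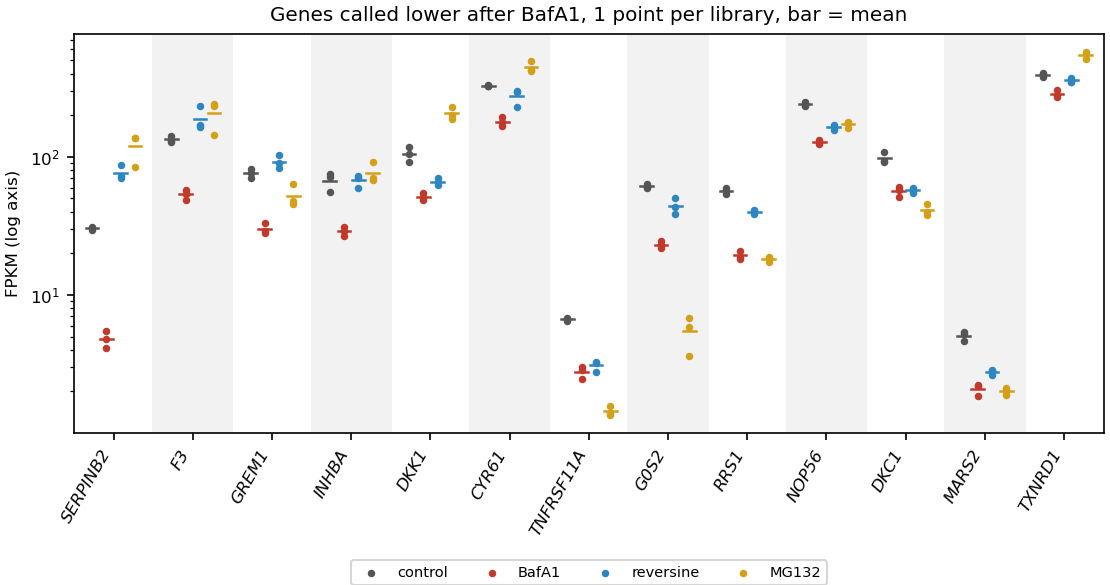
FPKM (y axis, log scale) of 13 genes called lower after BafA1 in each of the 12 libraries (points; bars are means of 3). The BafA1 points (red) lie below the controls (grey) in each gene, and for SERPINB2, F3, GREM1 and INHBA, for example, they also lie below the reversine and MG132 points.

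The lists of V-ATPase, lysosome, autophagy machinery and TFEB-family genes gave no calls, and that of autophagy receptors gave 1 of 12 higher, BNIP3L (median 0.23), which the hypoxia list also holds. Limma called 0 of 19 V-ATPase subunits in either direction (median log2 difference −0.13), and likewise 0 of 19 lysosomal membrane proteins (0.07), 42 lysosomal hydrolases and lumenal proteins (0.11), 35 genes of the autophagy machinery (0.15) and 15 TFEB-family factors and their regulators (0.27). At an unadjusted p under 0.05, which 7.12% of all tested genes had, the V-ATPase list held 2 genes, the membrane proteins 1, the hydrolases 5, the autophagy machinery 3 and the TFEB family 2. The TFEB-family median was 0.078 without BafA1 3, and the V-ATPase median −0.055 without control 2. Under the 15 alternative settings, V-ATPase and lysosomal membrane genes gave 0 calls, and the hydrolases, autophagy machinery and TFEB-family lists gave at most 1 each, higher. The catalytic subunit ATP6V1A stood at 15.4, 14.2 and 16.01 FPKM in controls and at 18.8, 20.01 and 20.5 FPKM after BafA1. The membrane subunit ATP6V0B stood at 106, 106 and 112 FPKM and at 82.8, 83.0 and 84.5 FPKM. Groups did not overlap in either gene, in opposite directions, and neither was called (limma adjusted p = 0.728 and 0.478). Of the 19 V-ATPase genes, 1 had all BafA1 libraries above all controls and 4 had them below. The shares over all tested genes were 15.7% and 7.42%.

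The smallest adjusted p in the autophagy machinery was that of WIPI1, which binds the early autophagosome membrane. It stood at 10.8, 10.1 and 10.0 FPKM in controls and at 18.7, 17.7 and 25.0 FPKM after BafA1 (log2 difference 0.91, limma adjusted p = 0.0581). GABARAPL1, a member of the LC3 family, stood at 17.4, 19.2 and 21.9 FPKM and at 34.2, 35.1 and 30.8 FPKM (limma adjusted p = 0.194). SQSTM1, the receptor p62, stood at 383, 372 and 373 FPKM and at 517, 491 and 429.9 FPKM (limma adjusted p = 0.644). In these 3 genes every BafA1 library was above every control. The same held in 11 of 35 autophagy machinery genes, 7 of 12 autophagy receptors and 15.7% of all tested genes. Every BafA1 library was below every control in 3 of the 35, 1 of the 12 and 7.42% of all tested genes. GPNMB, a glycoprotein of lysosomes that TFE3 drives, stood at 65.4, 65.8 and 62.2 FPKM and at 90.7, 87.6 and 103 FPKM (limma adjusted p = 0.0726). LIPA, the acid lipase that frees cholesterol from lipoproteins, stood at 35.1, 33.4 and 34.5 FPKM and at 51.0, 48.5 and 64.6 FPKM (limma adjusted p = 0.288). Of the cathepsins, CTSL stood at 118, 122 and 116 FPKM and at 85.5, 83.0 and 93.5 FPKM (limma adjusted p = 0.478).

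Iron handling gave 0 calls by limma in 15 genes (median −0.12). An unadjusted limma p under 0.05 was found in 2 of them, each lower, and in 7.12% of all tested genes. The median of the iron list turned to 0.074 without control 3 and 0.031 without BafA1 1. TFRC, the transferrin receptor, stood at 130, 90.8 and 113 FPKM in controls and at 158, 135 and 102 FPKM after BafA1, and overlapped (limma adjusted p = 0.733). HMOX1, heme oxygenase, stood at 28.6, 35.8 and 37.5 FPKM and at 16.02, 13.1 and 15.7 FPKM, with a limma adjusted p of 0.0557. LXR, the receptor that responds to excess sterol, had 0 of 8 listed genes called by limma (median 0.17; 2 at an unadjusted p under 0.05), and the efflux pump ABCA1 stood at 1.84 to 2.61 FPKM in controls and 1.6 to 1.94 FPKM after BafA1. Among the stress lists, 2 of 31 ATF4 targets rose, DDIT4 and VLDLR (median −0.05). Limma called 0 of 22 ER chaperones and degradation factors (median −0.10), with 5 lower and 2 higher at an unadjusted p under 0.05. It called 0 of 19 heat shock targets (median −0.05), with 1 lower at that level. DDIT3, a stress factor downstream of ATF4, stood at 20.3, 23.9 and 21.4 FPKM and at 27.4, 30.3 and 26.3 FPKM (limma adjusted p = 0.478). In the p53 list 1 of 24 genes rose, TP53INP1 (2.99-fold; median −0.02), and in the NRF2 list 1 of 13 fell, TXNRD1 (median −0.17, and −0.29 without BafA1 3).

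**Figure D5:**
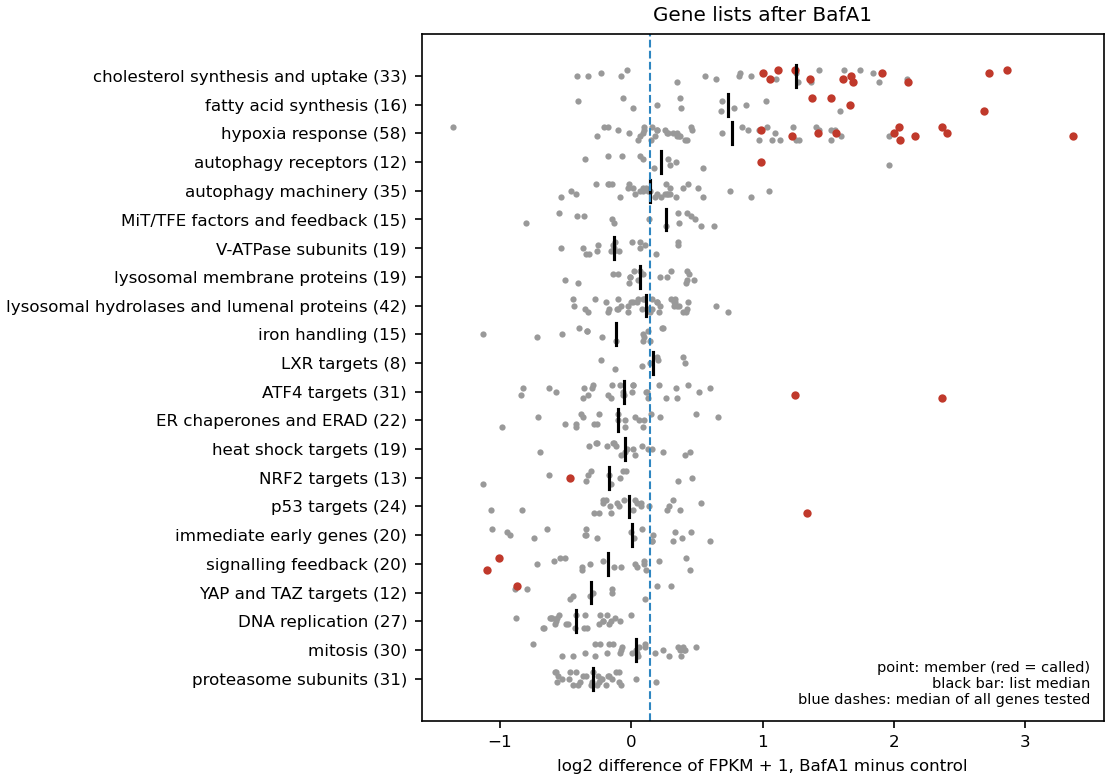
Log2 difference of FPKM + 1 (x axis, BafA1 minus control) of every tested member of 22 gene lists (y axis, number tested in parentheses); red points are called genes, black bars list medians and the dashed line the median of all genes tested, 0.14. The calls above 0 lie mainly in the cholesterol, fatty acid and hypoxia lists, whose medians are 1.25, 0.73 and 0.77, and the medians of the other lists lie between −0.42 and 0.27 (0.078 in place of 0.27 without BafA1 3).

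The levels after BafA1 were then set beside those after reversine and MG132, which differ from BafA1 in dose and time. MG132 2 and MG132 3 had 10150 and 9689 rows at 0, against 1875 in MG132 1, and their ribosomal RNA rows held 0%. Their values fell with GC content, with slopes of −0.44 and −0.47 log2 units per 10 percentage points, as did those of reversine 1 (−0.35). The part of these differences in the comparisons was not tested. The BafA1 libraries are the same in all comparisons, so genes chosen for a high level after BafA1 tend to be high in each, and no count below is read as a test of the list. Against reversine 1.23% of all tested genes were called (0.785% higher, 0.443% lower) and against MG132 10.9% (6.37% higher, 4.49% lower). Of the 62 genes that rose against control, 43 were called higher than after reversine and 50 higher than after MG132, 40 of them in both. Of the 19 that fell, 9, 11 and 8 were called lower.

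INSIG1 stood at 49.7, 59.7 and 56.9 FPKM after reversine and at 68.3, 57.9 and 59.7 FPKM after MG132, close to control. BafA1 was higher than either, by 2.63 and 2.47 on the log2 scale (limma adjusted p = 5.56e-05 and 5.91e-06). SCD stood at 209, 162 and 129.5 FPKM after reversine and at 64.5, 85.5 and 77.7 FPKM after MG132, again below BafA1 (log2 differences 1.95 and 3.06, limma adjusted p = 0.0023 and 3.7e-05). STARD4 differed from this: it stood at 42.3, 49.2 and 62.4 FPKM after MG132, overlapping the BafA1 libraries (log2 difference 0.15, limma adjusted p = 0.6). Of the 33 cholesterol genes 15 were called higher after BafA1 than after reversine, and 22 higher and 1 lower (NPC1) than after MG132. NPC1 was 1.25 lower on the log2 scale after BafA1 than after MG132.

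CA9 stood at 7.44, 10.6 and 13.2 FPKM after reversine and at 1.27, 2.63 and 2.19 FPKM after MG132, well below its level after BafA1 (log2 differences 2.22 and 4.13, limma adjusted p = 0.0052 and 3.7e-05). BHLHE40 and NDRG1 stood above control in the other treatments too. BHLHE40 stood at 49.4, 47.3 and 42.5 FPKM after reversine, below BafA1 (log2 difference 0.85, limma adjusted p = 0.0134). It stood at 71.5, 65.5 and 61.3 FPKM after MG132, and the log2 difference of 0.35 was not called (limma adjusted p = 0.112). NDRG1 stood at 54.5, 85.8 and 82.1 FPKM after reversine, where the difference was not called (limma adjusted p = 0.0757). It stood at 212, 137 and 119 FPKM after MG132, around the BafA1 libraries (limma adjusted p = 0.99). Of the 58 hypoxia genes 11 were called higher after BafA1 than after reversine, and 28 higher and 3 lower than after MG132.

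SERPINB2 stood at 87.4, 70.2 and 72.2 FPKM after reversine and at 83.8, 136 and 137 FPKM after MG132, above control in both, so that BafA1 was lower by 3.74 and 4.35 on the log2 scale (limma adjusted p = 0.00013 and 5.1e-06). RRS1 stood at 41.1, 38.4 and 40.1 FPKM after reversine and at 18.7, 17.4 and 18.8 FPKM after MG132, the latter among the BafA1 libraries (limma adjusted p = 0.62). The autophagy genes WIPI1 and GABARAPL1 were lower after BafA1 than after MG132, by 1.29 and 3.40 on the log2 scale (limma adjusted p = 0.0007 and 6.9e-06). Of 35 genes of the autophagy machinery 0 were called higher and 10 lower after BafA1 than after MG132, and 0 and 1 against reversine. Of the 19 V-ATPase genes 0 were higher and 8 lower than after MG132, and 0 and 2 against reversine.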

How the data were processed

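RNA selected with oligo(dT) was sequenced from 12 libraries as 50 nt reads, per the labels' protocols. RSEM 1.2.6, Bowtie 1.0.0 and hg19 (GRCh37) are named in the submitters' processing notes. The deposited values were taken as FPKM, since the header names no unit and column totals differ; counts, and so counting intervals, are not given in the sources used here. From the FPKM the limma trend method (limma 3.58.1, R 4.3.3) was run on log2(FPKM + 1) in a fit of the 4 groups without covariates (8 residual degrees of freedom, 1.26 from the prior). No further scaling was added. Alternatives were a pseudocount of 0.1, no filter, a filter of 5 FPKM, the 2 groups only and median-ratio scaling. Others were a correction for GC content and length (82.5% of rows have both, from GENCODE by identifier) and a robust prior. The last were omission of libraries with a falling GC trend, protein-coding genes only, and omission of each BafA1 or control library. The fit was also run on simulated data with independent normal noise around the control means. Those data held no depth, GC or level trend between libraries, so they cannot show how such differences affect the calls. Replicate numbers follow record order and pair nothing. The members and lists were chosen with earlier results of these data known. Named genes were the 15 highest and 12 lowest called with a mean of at least 2 FPKM, called list members, up to 4 further members of each list, any member of the lists on sterol, fatty acid, LXR, hypoxia, iron, V-ATPase and TFEB-family genes, and a set of fixed genes; others are marked. Values of copies that share reads are uncertain. A few called genes are not reported here by name, but are counted in their lists.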

Additional observations from a re-analysis of the deposited data

How the results depend on the processing

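With 3 libraries a group, few calls were secure: 7 of the 57 called rows named in the text kept the call under all 15 alternatives, and 0 of the 57 changed sign. In the comparison with MG132, where neither gene was called, the difference of NDRG1 was -0.0038, 0.077 with median-ratio scaling and -0.032 to 0.027 when a BafA1 library was left out, and that of RRS1 was 0.076 and -0.021 with the GC and length correction. The fit of the 2 groups alone gave 19 calls (16 higher, 3 lower), with 5 cholesterol, 2 fatty acid and 7 hypoxia genes. Correction for GC content and length, over 25349 genes, gave 203 calls (124 higher, 79 lower) and 22 hypoxia genes; the median of those genes was 0.11 without and 0.0068 with the correction. Omission of all libraries whose values fell with GC content left 44 calls, 31 of them higher. Protein-coding genes alone gave 251 calls (166 higher, 85 lower), with 20 cholesterol and 24 hypoxia genes. Genes called lower were 30 with a pseudocount of 0.1 and 32 with a filter of 5 FPKM. Leaving out each of the 6 BafA1 and control libraries in turn gave 19 to 34 calls, 15 to 27 higher and 4 to 7 lower. These held 3 to 6 cholesterol genes, 1 fatty acid gene and 5 to 9 hypoxia genes. No reversine or MG132 library was left out singly. Some of these settings hold fewer libraries or fewer genes, and the cause of the changed counts was not tested. With the filter of 5 FPKM no blood or endothelium marker was left, so those lists had no median. No paired analysis was possible because the labels give the libraries no replicate numbers.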

Other observations

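Genes of cell growth and division were described by 4 further lists, in which limma called 0 genes in either direction. Of all tested genes 7.12% had an unadjusted limma p under 0.05. So did 7 of 27 DNA replication genes, 2 of 30 mitosis genes, 7 of 31 proteasome genes and 2 of 39 respiratory chain genes. In the DNA replication list 26 of 27 genes had a log2 difference below 0 (median −0.42). All BafA1 libraries were below all controls in 17 of them, and in 7.42% of all tested genes. MCM4, a subunit of the replicative helicase, stood at 237, 208 and 255 FPKM in controls and at 173, 135 and 149 FPKM after BafA1 (limma adjusted p = 0.168). MCM3 stood at 89.7, 90.7 and 90.0 FPKM and at 65.2, 65.6 and 60.7 FPKM (limma adjusted p = 0.172). The mitosis list was split, with 17 of 30 genes above 0 and 13 below (median 0.04). The split rested on BafA1 3, which has the falling GC trend: against the controls the list's median was −0.08 in BafA1 1, −0.19 in BafA1 2 and 0.38 in BafA1 3, and −0.16 without BafA1 3. The levels of MCM3 after reversine (24.2, 23.9 and 25.4 FPKM) and after MG132 (11.4, 10.3 and 11.95 FPKM) lay below both. Of 31 proteasome subunits 29 were below 0 (median −0.29), as were 26 of 39 nuclear genes of the respiratory chain (median −0.14). These lists hold abundant genes: the median level was 115 FPKM for the proteasome and 125 FPKM for the respiratory chain, and 725 of the 906 protein-coding genes between 100 and 300 FPKM were below 0 (median −0.24). The median of the DNA replication list, at a median level of 36.1 FPKM, stands beside −0.12 for the 2680 protein-coding genes between 30 and 100 FPKM. What moves these medians was not tested.

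Among early response and signalling genes that were not called, several had groups well apart. Of the 20 immediate early genes, 9 had all BafA1 libraries below all controls and 3 had them above. The shares over all tested genes were 7.42% and 15.7%. At an unadjusted limma p under 0.05 the list held 4 lower and 3 higher genes, and the 3 named next are lower. The transcription factor KLF2 stood at 131, 114 and 122 FPKM in controls and at 61.5, 60.2 and 53.2 FPKM after BafA1 (limma adjusted p = 0.0879). FOSL1 stood at 736, 684 and 765 FPKM and at 437, 368 and 350.3 FPKM (limma adjusted p = 0.132), and JUN at 103, 97.2 and 98.6 FPKM and at 63.6, 61.2 and 53.2 FPKM (limma adjusted p = 0.157). TXNIP, an arrestin-domain protein that restrains glucose uptake, stood at 6.37, 6.28 and 5.19 FPKM and at 16.2, 15.2 and 19.5 FPKM (limma adjusted p = 0.0753). Of 20 immediate early genes 10 were above 0 and 10 below. Of 12 YAP and TAZ targets 9 were below 0 (median −0.30), with CYR61 called. The median level of the 12 was 72.2 FPKM. Among the 2680 protein-coding genes between 30 and 100 FPKM, 1783 were below 0 (median −0.12).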
